A study of Homo sapiens with 4 samples.

Results

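The clade B serpin cluster of human chromosome 18 was followed in BJ fibroblasts, which are an established human line, by ATAC-seq, an assay in which a transposase inserts tags into accessible DNA. Its 10 members are SERPINB5, SERPINB12, SERPINB13, SERPINB4, SERPINB11, SERPINB3, SERPINB7, SERPINB2, SERPINB10 and SERPINB8, in their order from the centromere, out of 20033 protein-coding genes annotated. A peak was assigned to a member when its summit lay in the gene or within 20 kb of any of its annotated start sites. This rule gave 27 of the 101142 peaks deposited for control cells and 28 of the 109486 peaks deposited for p63 cells on the autosomes, X and Y. At a −log10 q of 10 or more, the threshold for an open region, 16 of 56680 and 15 of 62343 remained.

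Both groups were doxycycline-inducible BJ lines that carried the reverse tetracycline transactivator from a lentivirus and the expressed genes from a retrovirus. Doxycycline was given to both groups before the assay, and the paper describes this system as one that detects early changes of chromatin. Control cells (CTR) expressed KLF4 alone and p63 cells expressed wild type ΔNp63α together with KLF4, so KLF4 was common to both groups and its own effect was not compared. Each group had 2 samples, which were separate inductions of the same polyclonal lines, and no cells without KLF4 entered the comparison. The authors deposited 1 peak list per group, so no value per replicate exists here, no test between conditions was possible, and the values describe these 2 lists. The assay averages many cells, and a region open in few cells cannot be told apart from a region weakly open in all.

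Serpins are protease inhibitors with an exposed loop that a protease cleaves, after which most members trap the enzyme in a covalent complex. Clade B members lack a classical signal peptide and act largely inside cells. The genes in this cluster arose by tandem duplication, and several of them, among them SERPINB3, SERPINB4, SERPINB5, SERPINB7, SERPINB12 and SERPINB13, are known from squamous epithelia such as the epidermis. SERPINB5, or maspin, does not inhibit proteases in the usual way and is known as a target of the p53 family, to which p63 belongs. p63 binds a site of 20 bases built from a pair of hemi-sites of 10 bases, and KLF4 binds GC-rich boxes.

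The sequence that differed most between the lists lay upstream of SERPINB5. A p63 region at chr18:63468702-63468905, 8.14 kb before the SERPINB5 start, had no overlapping CTR peak at any level. It is shown as a whole on the plus strand of hg38, and capitals mark its best hemi-site of the p53/p63 family, which had 1 mismatch.

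SERPINB5 −8.14 kb region: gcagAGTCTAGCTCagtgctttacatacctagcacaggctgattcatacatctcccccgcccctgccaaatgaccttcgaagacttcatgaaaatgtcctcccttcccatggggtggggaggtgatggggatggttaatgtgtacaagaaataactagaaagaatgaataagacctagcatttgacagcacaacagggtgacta

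The next sequences are those of the 2 regions whose interval for the p63/CTR ratio of read pileup lay above 1 and of the region with the lowest ratio. All lie within 100 bp of the summit and are on the plus strand. The 2 came from 17 loci with intervals unadjusted for that number, and 7.64% of loci over the genome had such an interval. PCR duplicates may also be included, so a difference at these 2 regions was not established. In the SERPINB12 region (chr18:63553219-63553419, around the summit of the p63 list) and the SERPINB10 region (chr18:63924605-63924805, around the summit of the CTR list), capitals mark hemi-sites with at most 1 mismatch. In the SERPINB2 region (chr18:63882708-63882908, around the summit of the CTR list), a window without such a hemi-site, capitals mark an AP-1 motif, the binding sequence of FOS and JUN factors.

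SERPINB12 +10.93 kb region: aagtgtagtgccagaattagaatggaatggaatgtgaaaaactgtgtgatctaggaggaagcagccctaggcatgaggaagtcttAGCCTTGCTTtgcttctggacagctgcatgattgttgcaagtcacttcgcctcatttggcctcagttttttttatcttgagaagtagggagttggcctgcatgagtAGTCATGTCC
SERPINB2 −4.87 kb region: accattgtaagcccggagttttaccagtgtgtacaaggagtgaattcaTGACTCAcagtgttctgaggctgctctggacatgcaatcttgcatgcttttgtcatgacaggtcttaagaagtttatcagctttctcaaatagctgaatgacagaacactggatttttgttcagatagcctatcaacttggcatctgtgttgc
SERPINB10 +16.78 kb region: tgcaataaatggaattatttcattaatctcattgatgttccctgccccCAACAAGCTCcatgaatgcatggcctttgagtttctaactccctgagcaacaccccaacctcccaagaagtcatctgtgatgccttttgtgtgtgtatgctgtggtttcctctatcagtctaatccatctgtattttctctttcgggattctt

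Open regions were denser here than in the genome in both lists. The windows of the members covered 473.3 kb in 6 stretches, which gave 33.8 open regions per Mb in CTR and 31.7 in p63, against 18.4 and 20.2 over the genome, gene-poor DNA included. Their strength resembled that of other regions. The median −log10 q was 23.8 in CTR and 28.4 in p63, against 22.6 and 23 over all open regions, and the median fold enrichment of the summit over local background was 10.76 and 10.56, against 9.37 and 9.59. The GC content within 100 bp of the summit had a median of 45.3% in CTR and 44.8% in p63, below the 49.8% and 50.2% of all open regions.

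To find out which regions were open in a single condition, the lists were overlapped by at least 1 bp. Of the 16 CTR regions 13 were also open in p63 and 3 were CTR-only (18.8%, 95% Wilson interval 6.59 to 43.0%), near the 16.5% of the whole CTR list. Of the 15 p63 regions 2 were p63-only (13.3%, 3.74 to 37.9%), and the interval held the 23.9% of the whole p63 list. On chromosome 18 the shares were 17.5% and 24.4%. All 3 CTR-only regions still had a p63 peak below the threshold, and 1 of the 2 p63-only regions had no CTR peak. Over the genome, 1864 of 9339 CTR-only regions and 7459 of 14931 p63-only regions had no peak in the other list. The intervals cover counting error only.

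**Figure D1:**
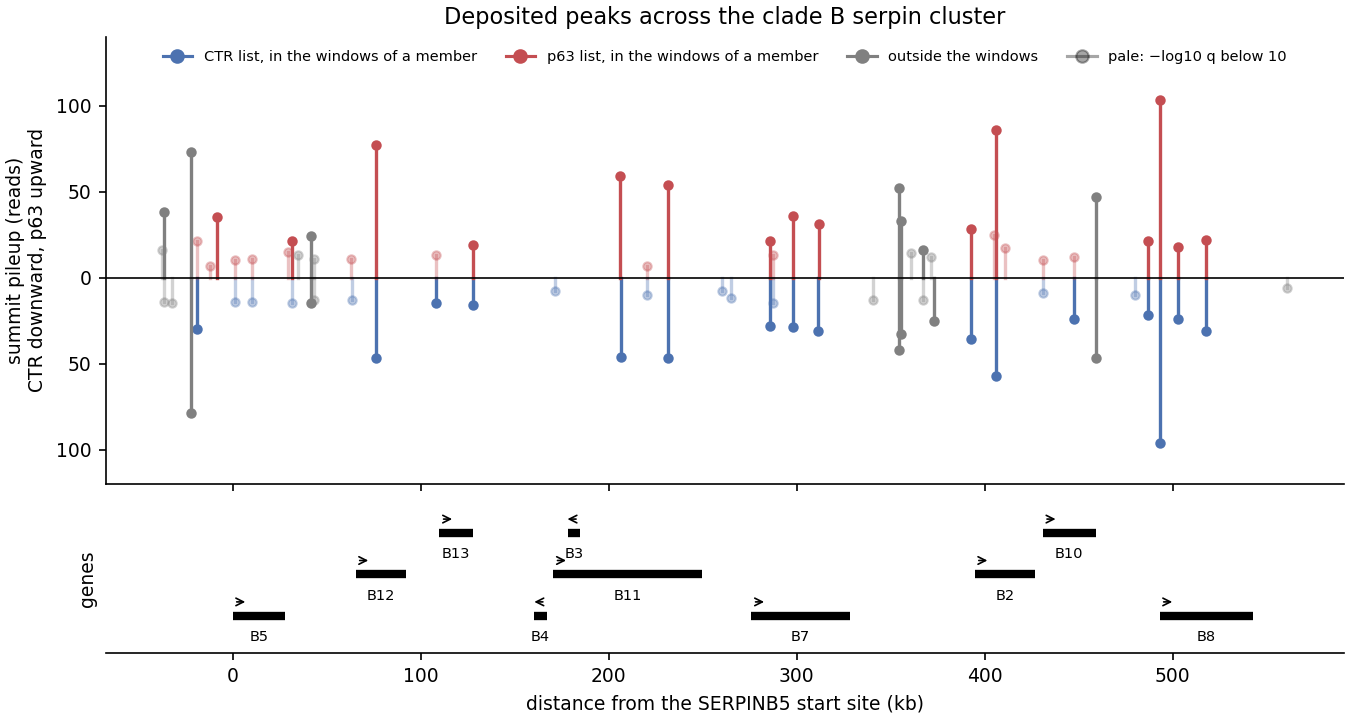
Summit pileup in reads of each deposited peak against the distance from the SERPINB5 start site in kb, with p63 upward, CTR downward, pale marks below the threshold, grey marks outside the windows of the members, and bars for the genes, named without their SERPIN prefix, with arrows for their direction. Most marks stand in mirrored pairs, the p63 mark of 35 reads at −8.14 kb has no CTR mark beneath it, and no full-colour mark stands at B3 or B4.

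Counted by gene, 8 of the 10 members had an open region in at least 1 list. SERPINB3 and SERPINB4 had none, and of all protein-coding genes 12.1% had none in the same windows. Members with a CTR-only region were SERPINB5, SERPINB13 and SERPINB10, 3 of 10 against 27.4% of all genes. SERPINB5 was the single member with a p63-only region, 1 of 10 against 40.0% of all genes. A region within 3 kb of any annotated start was open in CTR at 5 members (SERPINB13, SERPINB11, SERPINB7, SERPINB2 and SERPINB8) and in p63 at 4 of them, without SERPINB13, while 69.4% and 70.8% of all protein-coding genes had one.

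The values of the regions were then compared through the read pileup at the summit, a whole number that could be solved from the fold enrichment and the p-value of each peak. The background coverage solved in the same way was 1.18 reads in CTR and 1.13 reads in p63, a p63/CTR ratio of 0.958, and pileups were compared without scaling. Over the genome, 62114 matched loci past the threshold in at least 1 list had a median p63/CTR ratio of 1, with 0.579 at the 5th and 2 at the 95th percentile. The cluster held 17 such loci. Their summed pileup was 594 reads in CTR and 642 in p63, a ratio of 1.08 (95% exact interval 0.965 to 1.21, counting error only), and their median ratio was 1, with 8 loci above 1, 8 below and 1 equal. The interval of a single locus lay above 1 in 2 of the 17, against 7.64% over the genome, and below 1 in 0 of the 17, against 2.84%. The same counts resulted when pileups were divided by the background ratio. The summits of the 17 pairs lay at most 69 bp apart, with a median of 25 bp.

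**Figure D2:**
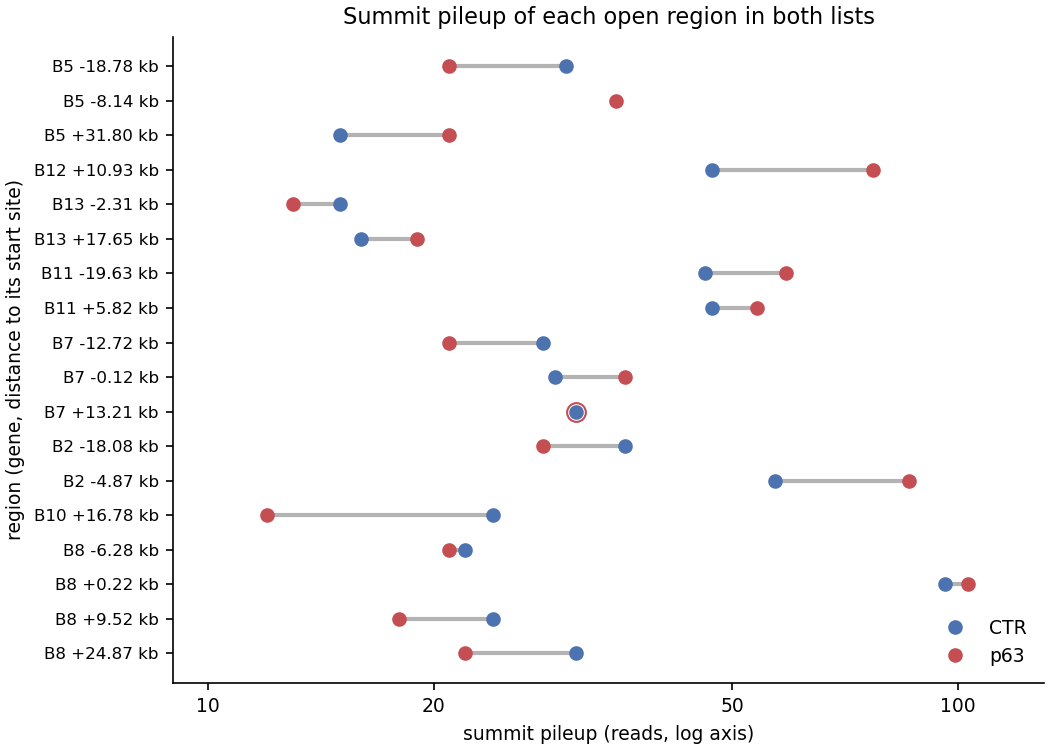
Summit pileup in reads, on a log axis, of each region of the cluster open in at least 1 list, with a blue point for CTR and a red point for p63 joined by a grey line, and regions named by gene without the SERPIN prefix and by distance to its start site. The B5 −8.14 kb region has a red point alone at 35 reads, B12 +10.93 kb and B2 −4.87 kb extend to the right in p63, and B10 +16.78 kb extends to the left from 24 to 12 reads.

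SERPINB5 (chr18:63476958-63505085, plus strand) had the most list-only regions of the members. The intergenic p63-only region at −8.14 kb had 35 reads at its summit, an enrichment of 11.78 over background and a −log10 q of 28.4. The other p63-only region, at chr18:63508649-63509025 and past the 3′ end of the gene, had 21 reads and a −log10 q of 12.95 in p63 and 15 reads and 7.01 in CTR. Its ratio of 1.40 had an interval of 0.688 to 2.92, so the read counts did not separate the lists and the region differed by its side of the threshold.

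The gene also had a CTR-only region, at chr18:63458075-63458303 and 18.78 kb upstream. Its pileup was 30 reads in CTR and 21 in p63, with a −log10 q of 12.38 and 7.81 over a raised local background of 4.82 and 3.75 reads. The ratio of 0.70 had an interval of 0.381 to 1.26, so the read counts did not separate the lists here either. At the SERPINB5 promoter itself no peak of either list was found. The nearest to the RefSeq start was a weak peak in intron 1, 1.22 kb into the gene. It had 14 reads and a −log10 q of 9.25 in CTR and 10 reads and 5.40 in p63. A weak peak in intron 3, at 10.24 kb, likewise had 14 reads in CTR and 11 in p63. Its summit lay 470 bp past another annotated start in CTR and 564 bp past it in p63.

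The 250 bases before the SERPINB5 start are shown from RefSeq (GRCh38, chr18:63476708-63476957, plus strand), because they were not in a peak of either list although they held KLF-type boxes, marked by capitals. These boxes were searched as GGGCGGGGC, GGGCGTGGC, GGGTGGGGC or GGGTGTGGC on both strands, of which overlapping copies can be counted, and 18.4% of 35116 RefSeq promoter windows, which run from 250 bases before to 50 bases after a start, contained 1.

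SERPINB5 promoter: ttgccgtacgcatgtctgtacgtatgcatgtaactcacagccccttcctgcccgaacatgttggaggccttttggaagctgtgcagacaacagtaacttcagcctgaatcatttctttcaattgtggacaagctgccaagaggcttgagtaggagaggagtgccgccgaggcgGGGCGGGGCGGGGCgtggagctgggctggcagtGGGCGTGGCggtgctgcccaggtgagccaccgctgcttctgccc

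SERPINB12 (chr18:63542369-63569329, plus strand), an inhibitor of trypsin-like proteases, had 1 open region in both lists, in intron 1. Its pileup was 47 reads in CTR and 77 in p63, a ratio of 1.64 (1.13 to 2.41) at percentile 90.9 of the matched loci. The fold enrichment was 14.12 and 19.07 and the −log10 q 40.7 and 74.2, which made it the region with the highest −log10 q of the cluster in p63. In the sequence given above its summit window held 2 hemi-sites of the p53 family with 1 mismatch, whereas its best full site in the peak had 5 mismatches. A weak peak 2.09 kb before the start had 13 reads in CTR and 11 in p63.

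SERPINB13 (chr18:63586989-63604639, plus strand), which is known from keratinocytes as an inhibitor of cathepsins L and K, lay next. Its CTR-only region at chr18:63584962-63585251 was 2.31 kb before the canonical start. It had 15 reads and a −log10 q of 10.34 in CTR and 13 reads and 8.46 in p63, so 2 reads lay between open and not open. The shared region just past the gene, at 17.65 kb, had 16 reads in CTR and 19 in p63.

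SERPINB4 (chr18:63637259-63644256, minus strand), an inhibitor of cathepsin G and chymase, and SERPINB3 (chr18:63655197-63661893, minus strand), an inhibitor of cathepsins K, L and S, had no open region in either list. The sole peak in their windows was a CTR peak at chr18:63648268-63648457 with 8 reads and a −log10 q of 3.39, which also lay in the window of SERPINB11. The nearest open region lay upstream of both, 39.08 kb from the SERPINB4 start and 21.44 kb from the SERPINB3 start in CTR. Both genes are close copies of each other. Of all words of 50 bases in the gene, 21.3% in SERPINB4 and 21.9% in SERPINB3 occurred again within the cluster, against 0.0409 to 4.72% in the other members. How reads with several positions were treated was not stated, and the part of these repeats in the missing peaks was not tested. None of the open regions of the cluster contained such a repeated word. The 250 bases before both starts are shown from RefSeq (GRCh38, chr18:63644257-63644506 for SERPINB4 and chr18:63661894-63662143 for SERPINB3, both minus strand). They were 98.8% identical, and capitals mark the 3 bases that differ.

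SERPINB4 promoter: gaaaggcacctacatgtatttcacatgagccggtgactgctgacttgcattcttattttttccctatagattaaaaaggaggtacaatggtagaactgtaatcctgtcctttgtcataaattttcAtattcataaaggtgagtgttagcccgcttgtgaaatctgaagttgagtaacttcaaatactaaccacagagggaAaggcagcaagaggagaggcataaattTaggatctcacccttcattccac
SERPINB3 promoter: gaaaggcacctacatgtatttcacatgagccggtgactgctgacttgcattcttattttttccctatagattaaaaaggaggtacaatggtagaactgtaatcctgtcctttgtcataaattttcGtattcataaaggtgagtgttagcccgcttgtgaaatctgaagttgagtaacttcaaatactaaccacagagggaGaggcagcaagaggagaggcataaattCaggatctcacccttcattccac

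SERPINB11 (chr18:63647579-63726432, plus strand) spans SERPINB3 on the opposite strand. It had 2 open regions in both lists, each with more reads in p63. The region 19.63 kb before the canonical start, within longer transcripts of the gene, had 46 reads in CTR and 59 in p63, a ratio of 1.28 (0.858 to 1.93). The region in intron 1, at 5.82 kb, had 47 and 54 reads, a ratio of 1.15 (0.763 to 1.74). Both intervals included 1. A weak peak at −5.49 kb had 10 reads in CTR and 7 in p63.

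SERPINB7 (chr18:63752935-63805376, plus strand), whose loss causes a palmoplantar keratosis, had 3 open regions in both lists. The region at its canonical start, centred 0.12 kb before it, had 29 reads in CTR and 36 in p63, a ratio of 1.24 (0.740 to 2.10). The region in intron 2, at 13.21 kb, had 31 reads in each list, and the region at −12.72 kb had 28 in CTR and 21 in p63. Below the threshold, a peak at −11.04 kb was in both lists, with 15 and 13 reads, and 2 upstream peaks of 8 and 12 reads were in the CTR list alone. The promoter sequence is shown from RefSeq (GRCh38, chr18:63775168-63775417, plus strand), since it was the epidermal member with an open region across its start in both conditions. Capitals mark an AP-1 motif, searched as TGACTCA or TGAGTCA, which read the same on both strands as a pair and were present in 4.95% of the RefSeq promoter windows with their 50 bases after the start included.

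SERPINB7 promoter: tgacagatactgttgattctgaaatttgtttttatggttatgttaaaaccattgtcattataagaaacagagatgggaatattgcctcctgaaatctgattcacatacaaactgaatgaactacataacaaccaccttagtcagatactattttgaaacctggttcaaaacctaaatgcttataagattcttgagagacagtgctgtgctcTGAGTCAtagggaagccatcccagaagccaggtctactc

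SERPINB2 (chr18:63871692-63903888, plus strand), or plasminogen activator inhibitor type 2, inhibits urokinase. Its strongest region, 4.87 kb before the canonical start and within longer transcripts, had 57 reads in CTR and 86 in p63, a ratio of 1.51 (1.07 to 2.15) at percentile 88. The region at −18.08 kb, just upstream of the earliest start, had 36 and 28 reads, a ratio of 0.778 (0.457 to 1.31) whose interval included 1. The p63 list also held peaks below the threshold that no CTR peak overlapped, at −5.62 kb with 25 reads and a −log10 q of 9.51, and at −0.08 kb, just before the canonical start, with 17 reads and 4.33.

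SERPINB10 (chr18:63907958-63936111, plus strand), or bomapin, is known from blood cells. Its open region in intron 5, at 16.78 kb, was CTR-only, with 24 reads in CTR and 12 in p63 and a −log10 q of 19.62 and 7.40. The ratio of 0.50 had an interval of 0.228 to 1.04 and stood at percentile 2.1 of the matched loci, the lowest of the cluster. A weak peak at the start, at −0.14 kb, had 9 reads in CTR and 10 in p63.

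SERPINB8 (chr18:63970029-64019779, plus strand), an inhibitor of furin, was the member with the most reads at a promoter. The region at 0.22 kb had 96 reads in CTR and 103 in p63, a ratio of 1.07 (0.805 to 1.43), and covered 1249 bp in CTR and 1139 bp in p63. Its fold enrichment of 10.29 in CTR and 10.56 in p63 was below the 11.22 and 12.72 at the SERPINB7 start. Its GC content near the summit was 69.7%, above that of the other open regions of the cluster. The regions at −6.28, 9.52 and 24.87 kb had 22, 24 and 31 reads in CTR and 21, 18 and 22 reads in p63. Each of these 3 was lower in p63 within an interval that included 1.

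**Figure D3:**
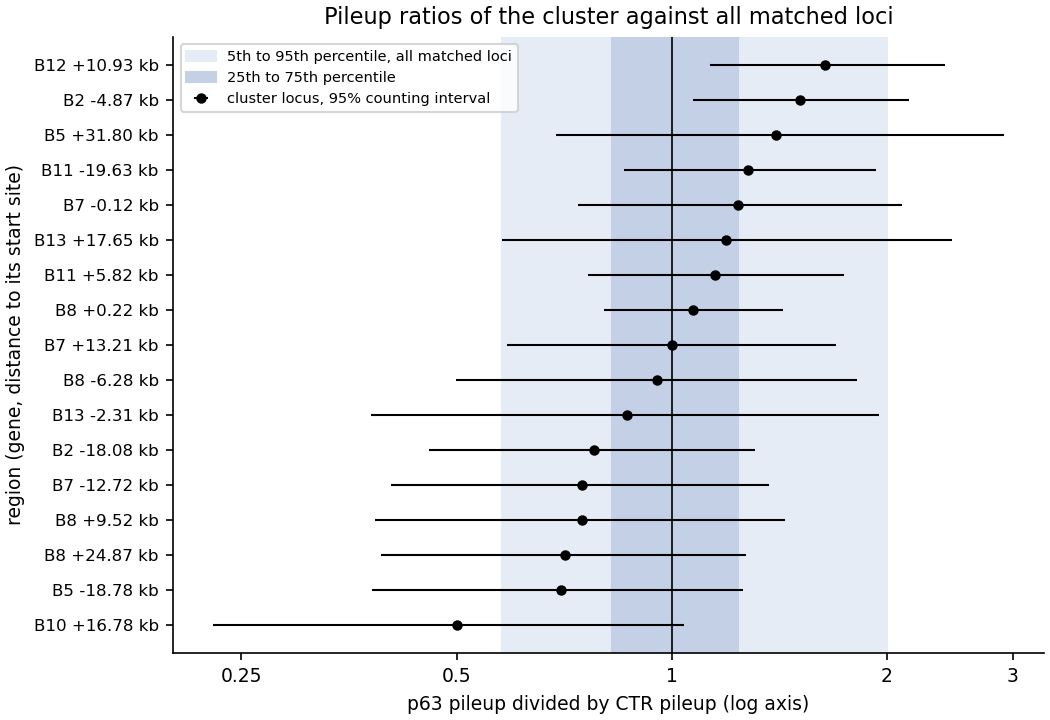
Ratio of p63 to CTR summit pileup on a log axis for the 17 matched loci of the cluster, with exact 95% intervals for counting error, over bands for the 25th to 75th and 5th to 95th percentiles of all 62114 matched loci. B12 +10.93 kb at 1.64 and B2 −4.87 kb at 1.51 have intervals above 1, and B10 +16.78 kb at 0.50 lies left of the wider band with an interval that reaches 1.04.

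To relate the regions to p63 binding, the full site was searched with the C and G of each core required and up to 3 mismatches among the 16 remaining positions. None of the 15 open p63 regions held a site within 100 bp of the summit, against 3.78% of all open p63 regions. A count of 0 allows a share of up to 20%, so the cluster could not be told apart from the whole list. Over the genome 11.4% of p63-only regions had a site, as did 1.39% of the p63 regions shared with CTR. The p63-only region at −8.14 kb of SERPINB5 had a best full match of 8 mismatches and that past the SERPINB5 gene one of 6. Hemi-sites with at most 1 mismatch were common, with 75.9% of all open p63 regions holding one anywhere in the peak and 19% one without mismatch. In the cluster 13 of the 15 regions held one, and 3 held one without mismatch, near SERPINB13 at 17.65 kb and near SERPINB8 at −6.28 and 0.22 kb.

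The windows did contain full sites elsewhere. There were 12 with at most 3 mismatches, of which the pair before SERPINB5 at −9.63 and −9.62 kb overlapped each other. None of the 12 lay in a deposited peak of either list at any level, and a count of 0 of 12 allows up to 25%. Over the genome 5.3% of such sites lay in a deposited p63 peak, from 24.2% of those without mismatch to 4.43% of those with 3. The best site of the cluster had 1 mismatch and lay at chr18:63859608-63859627, 28.09 kb before the SERPINB2 start and 9847 bp from the nearest p63 peak. It is given with the 3 sites of 2 mismatches, in which capitals mark bases that match the site and small letters the mismatches.

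SERPINB2 −28.09 kb site: GGGCTTGTTTGtACTAGTCC
SERPINB2 −32.03 kb site (chr18:63855662-63855681): AGGCATGCaCcAACATGTCT
SERPINB11 −17.99 kb site (chr18:63684962-63684981): tGGCATGCCCcAACTTGCCT
SERPINB11 −15.06 kb site (chr18:63687886-63687905): GAGCAAGCCCAAGCAgGTTg

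The SERPINB11 site at −17.99 kb was 1440 bp from the nearest p63 peak. Another site, past SERPINB13 at 18.44 kb with 3 mismatches, was the nearest to a peak, at 415 bp. The best site before SERPINB5 had 3 mismatches, and the distance from the −9.62 kb site to the p63-only region of that gene was 1354 bp.

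**Figure D4:**
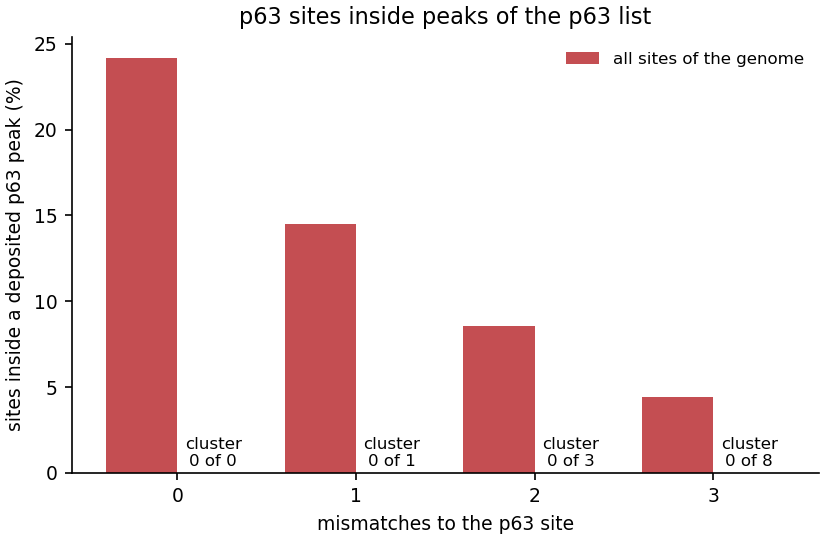
Percent of p63 sites of the genome that lie in a deposited p63 peak, as bars by the number of mismatches, with the count of such sites in the windows of the cluster printed beside each bar. The bars decline from 24.2% to 4.43%, and the cluster had 0 of 0, 0 of 1, 0 of 3 and 0 of 8 sites in a peak.

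The other motifs were counted within the same 100 bp, and the small counts were not tested against the shares over all open regions. AP-1 motifs lay within 100 bp of 3 of the 16 CTR summits and 2 of the 15 p63 summits, where 26.9% and 25.4% of all open regions had one. The difference of 1 was the SERPINB2 region, whose summit lay 49 bp further along in p63. TEAD motifs (ACATTCCA, ACATTCCT, GCATTCCA or GCATTCCT on both strands) lay near the same 2 regions in both lists, the SERPINB12 region and the SERPINB11 region at −19.63 kb, and were found at 8.90% and 8.24% of all regions. KLF boxes lay near 2 CTR and 0 p63 summits, against 7.40% and 7.14%. Of these 2, the SERPINB13 region kept its box in p63 but was below the threshold, and the summit of the SERPINB8 promoter region lay 27 bp further along in p63, which left the box outside the window. The CTCF motif lay near the SERPINB8 regions at 9.52 and 24.87 kb in both lists, against 9.78% and 8.40%.

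Related genes were described with the same windows. Clade B serpins outside the cluster (SERPINB1, SERPINB6 and SERPINB9) had 1 CTR-only and 0 p63-only regions among 10 and 9 open regions. The shares of the whole lists were 16.5% and 23.9%. SERPINB9, an inhibitor of granzyme B, had no open region. Of 6 serpins of other clades, 4 had a p63-only region, against 40.0% of all genes, and 2 had a CTR-only region, against 27.4%. Of their open regions 7 of 17 were p63-only (41.2%, against 23.9%) and 5 of 15 were CTR-only (33.3%, against 16.5%). SERPINF1, or pigment epithelium-derived factor, had 3 p63-only and 2 CTR-only regions, and SERPINH1, a collagen chaperone, had 1 and 3. SERPINA3, or α1-antichymotrypsin, had a promoter region in the p63 list alone, with a −log10 q of 21.4. Of 16 proteases that members of the family are known to inhibit or are set against, 3 had a p63-only region, against 40.0% of all genes, and 3 had a CTR-only region (CTSK, PRTN3 and ELANE), against 27.4%. Those with a p63-only region were CTSV, a cathepsin of the epidermis, with 3, CTSK with 1, at its promoter with a −log10 q of 40.9, and CMA1, or chymase, with 1. PLAU, the urokinase that SERPINB2 inhibits, had 5 open regions in each list and none was list-only, with a promoter −log10 q of 65.1 and 68.3. FURIN, the target of SERPINB8, had 4 in each, with 29.6 and 13.7.

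The kallikrein and desmosomal cadherin clusters differed from the serpins in these counts, a difference that was not tested. The 15 kallikrein genes had 5 open regions in CTR and 9 in p63, of which 4 were p63-only (44.4%, against 23.9% of the whole list) and lay in the windows of 8 of the 15 genes (against 40.0% of all genes), while the 7 desmosomal cadherin genes, also on chromosome 18, had none in either list. Among the protein-coding neighbours within 500 kb, BCL2, KDSR and VPS4B had 1, 1 and 2 p63-only regions, and HMSD and a gene without a symbol had none. Together 4 of their 15 open p63 regions were p63-only (26.7%, against 23.9% of the whole list), at 3 of 5 genes (against 40.0%). None of their 11 open CTR regions was CTR-only, against 16.5% of the whole list. The neighbours were not separate from the cluster. The SERPINB8 regions at −6.28, 0.22 and 9.52 kb, open in both lists, lay within HMSD and were counted again here.

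The labelled cell type was checked by its markers. A region within 3 kb of a start was open at 13 of 13 fibroblast markers in both lists, at 5 of 12 keratinocyte markers in CTR and 7 of 12 in p63, where KRT5 and OVOL1 were added, and at 2 and 3 of 9 markers of blood, endothelial, melanocyte or other epithelial cells. Of all protein-coding genes 69.4% in CTR and 70.8% in p63 had such a region, a higher share than at the keratinocyte or other markers. The part of these cell types in the regions of the cluster was not tested.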

How the data were processed

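Chromatin accessibility was measured by ATAC-seq in 4 BJ samples, 2 per group. The authors mapped reads to hg38 with Bowtie2 2.3.4.3 and called peaks with MACS2, whose version and options were not given in the sources used here, and deposited 1 list per group from both replicates. Per peak, the lists deposited by the authors give a fold enrichment (a ratio over local background), a −log10 p-value, a −log10 q-value and the summit offset, none scaled between lists. Removal of duplicates, the shift for the transposase and whether reads or fragments were piled up were not stated. As PCR duplicates may be included, intervals cover counting error only.

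Peaks on chromosomes 1 to 22, X and Y were assigned with GENCODE release 44 and overlapped with bedtools 2.31.1. A summit pileup n and background b were solved for each peak from fold = (n + 1)/(b + 1) and the Poisson p-value, which failed for 16 peaks per list, none of them here. Pairs were the strongest overlapping peaks of both lists, and ratio intervals were exact binomial (scipy 1.17.1). Sequences were read with pysam 0.24.0, and promoter sequences came from RefSeq for 8 of 10 members. Motifs were searched with 0 mismatches, the CTCF motif with at most 1. The scripts were tested on simulated data. All 10 members were described, with each region open in 1 list, near a start site or with a site. The members, lists and tests were chosen with earlier results of these data known. One listed gene of another clade is not reported here. No per-replicate depth could be given. Coordinates are 1-based.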

Additional observations from a re-analysis of the deposited data

How the results depend on the processing

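The counts came out alike (within a factor of 1.5), and the pooled pileup ratio within its interval, in 41 of 56 alternatives and moved in 15, without a test behind any of them. At a −log10 q of 20 or more, 9 regions were open in p63 and 1 was p63-only. Without a threshold the windows held 27 CTR peaks and 28 p63 peaks, 5 p63-only regions, and 2 members with one. Windows of 10 kb left 1 p63-only region. Windows of 50 kb gave 23 open p63 regions, 5 p63-only regions and 3 members with one. In gene bodies alone 1 CTR-only and 0 p63-only regions remained, with 0 members, so both p63-only regions lay outside genes. Counting peaks absent from the other list at any level left 0 CTR-only and 1 p63-only region. These settings change the peaks or windows counted by construction. No p63-only region had a p63 site under any alternative, but each held at most 5 such regions. With so few, a count of 0 cannot show an absence. The pileup ratio stayed between 1.05 and 1.13 under 4 settings that were, like the count over the whole span of the cluster, chosen after seeing the data. No paired analysis was possible because the lists hold no column per replicate, and for the same reason no replicate could be left out. At the threshold the lowest pileup was 15 reads, so regions with fewer reads were not detectable as open.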

Other observations

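Beyond the windows, the gaps between members and the 60 kb on either side of the cluster held 7 open CTR regions and 9 open p63 regions, all intergenic. Of these 1 was CTR-only and 3 were p63-only, where 16.5% of all open CTR regions and 23.9% of all open p63 regions were list-only. These positions were chosen after the values had been seen.

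On the SERPINB5 side, 2 of the p63-only regions lay towards VPS4B. They are probably the 2 p63-only regions counted for VPS4B above. The region at chr18:63440335-63440572, 36.53 kb before the SERPINB5 start, had 38 reads and a −log10 q of 27.83 in p63, and a CTR peak of 14 reads and 6.95. The region at chr18:63427510-63427887 had 46 reads and 22.08 in p63 with no CTR peak, and its best full p63 site within 100 bp of the summit had 4 mismatches. Next to them, a region 22.35 kb before SERPINB5 had 79 reads in CTR and 73 in p63, so the stretch also held a region of nearly equal pileup. Between SERPINB5 and SERPINB12, a region open in both lists, 23.77 kb before the SERPINB12 start, had 15 reads in CTR and 24 in p63.

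In the gap between SERPINB7 and SERPINB2 the third p63-only region had 16 reads in p63 and 13 in CTR, 43.32 kb before the SERPINB2 start. The CTR-only region, at chr18:63850038-63850382 and 37.51 kb before the same start, had 25 reads and a −log10 q of 21.66 in CTR and no p63 peak at any level. A region past SERPINB10 had 47 reads in each list.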
